A study of Homo sapiens with 6 samples.

Results

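Plasmin formation at the cell surface and the start of blood clotting were followed through 8 genes: the plasminogen activators PLAU and PLAT, the activator receptor PLAUR, the serpin inhibitors SERPINE2 and SERPINB2, the clotting initiator tissue factor (F3), and the Kunitz-type inhibitors TFPI and TFPI2. The 8 genes were chosen on earlier results of the same comparison that is described here, and each was found by its symbol in the deposited count table, as 8 of 27234 rows. Their differences between the groups are therefore a description, and their calls in the fit over all genes support nothing about the group. The cells were A673, an Ewing sarcoma line that carries the fusion of EWSR1 with the ETS factor gene FLI1. In 1 group (siFLI1, 3 libraries) they received siRNA directed at FLI1, in the other (siControl, 3 libraries) a scrambled siRNA, and RNA was collected from all at 48 h. Every group thus shares the cell line, its fusion and the transfection itself, and a single line limits the model. The labels speak of triplicates and do not say that these were separate cultures or days, so the spread between libraries may be technical.

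PLAU (urokinase) and PLAT (tissue-type activator) are serine proteases that cut plasminogen into plasmin, which dissolves fibrin and degrades matrix. PLAUR holds urokinase on the cell surface, and serpins trap the activators in inactive complexes. Tissue factor binds the clotting protease factor VII and starts thrombin formation, TFPI blocks that complex, and TFPI2 is a matrix-bound relative of TFPI that inhibits plasmin among other proteases. In tumours these proteins are studied for their part in invasion and in clotting around cancer cells.

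Sequencing read the 3' ends of polyadenylated transcripts. Levels are CPM, the share of a library's counts that fell on a gene, scaled between libraries by the trimmed mean of M values (TMM). The TMM factor was 1.23 in siControl replicate 1 and 0.936 to 0.987 in the other 5 libraries. Where 3 values are given for a group, they are replicates 1, 2 and 3 in that order. Total counts in the table ran from 417145 to 1893606 per library, the lowest in siFLI1 replicate 3. That library had 10.1% of its header total assigned to genes, against 41.2% to 61.0% in the other 5, and it lay apart from them on the first principal component. Without it the log2 fold changes of PLAU, PLAT, F3 and TFPI2 were 2.38, 2.72, 2.42 and 1.46, and those of PLAUR, SERPINE2, TFPI and SERPINB2 were 0.60, 0.42, 0.41 and −0.69. FLI1 was at 19.0, 42.5 and 24.1 CPM in siFLI1 and at 63.0, 69.1 and 62.4 CPM in siControl. That is −1.16 ± 0.36 on the log2 scale (SE). The counts do not tell transcripts of FLI1 and of the fusion apart. FLI1 was not called over all genes (edgeR adjusted p = 0.17), and its exact two-sided permutation p was 0.1, the smallest that 3 against 3 libraries allow. Of the markers fixed for Ewing cells, 5 of 5 passed the low-count filter, and their summed level was 1009 to 1785 CPM in siFLI1 (1562 at the lowest without replicate 3) and 2359 to 3633 CPM in siControl. CCND1 held most of that sum except in siFLI1 replicate 3, and it overlapped between the groups, as did CD99 and NKX2-2. NR0B1 and STEAP1 lay lower without overlap, and NR0B1 was the 1 marker called (−1.43 ± 0.30, SE; edgeR adjusted p = 0.025).

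All 8 genes passed the low-count filter, and all 8 had counts in each library. PLAU, PLAT, F3 and TFPI2 were called higher in siFLI1 and 0 were called lower, at an adjusted p of 0.05 in edgeR. Over all 9420 tested genes 1.34% were called higher and 0.117% lower. DESeq2 and limma-voom each called 4 higher and 0 lower, where they called 1.94% and 1.35% of all tested genes higher and 0.361% and 0.138% lower. Without adjustment edgeR had 5 higher and 1 lower at a p of 0.05, against 6.62% and 4.13% of all tested genes. The libraries of the groups did not overlap for 5 genes that were higher in siFLI1 (8.93% of tested genes) and for 1 that was lower, SERPINB2 (7.71% of tested genes). The median log2 fold change of the 8 was 1.10, and that of all tested genes 0.01. Because the choice of genes rested on this contrast, nothing is read from these shares.

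**Figure D1:**
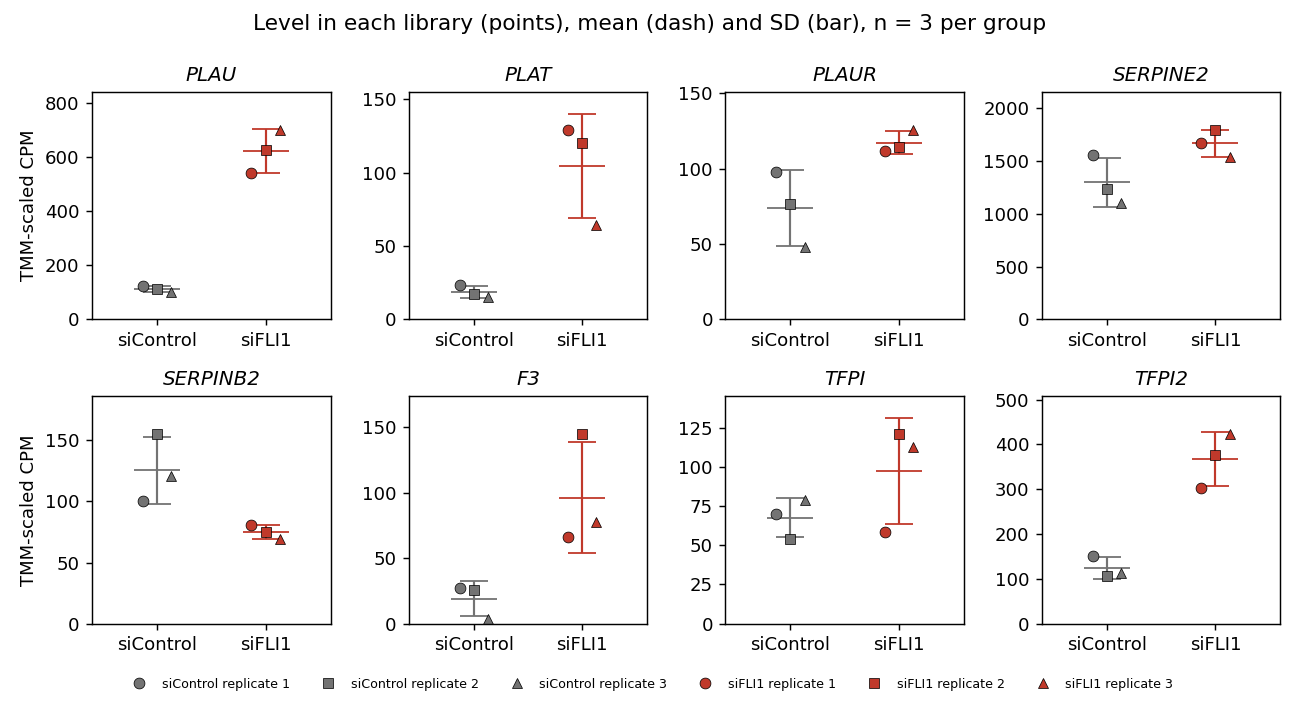
TMM-scaled CPM (y axis, linear from 0) of the 8 genes in each library, grey for siControl and red for siFLI1; marker shapes give the replicate number, dashes the group mean and bars the SD (n = 3). The siFLI1 points of PLAU lie between 541 and 702 CPM above siControl points of 100 to 123 CPM, and the F3 point of siControl replicate 3 lies near 0 at 3.42 CPM.

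PLAU and PLAT had the highest estimated fold changes of the 8, and the intervals of F3 and TFPI2 overlapped theirs. As these are bulk samples, more cells with a transcript and more of it per cell cannot be told apart. PLAU (NM_002658, hg38 chromosome 10, 73911101 to 73917500, plus strand) was at 541, 626 and 702 CPM in siFLI1, and at 123, 114 and 100 CPM in siControl. Every siFLI1 library lay far above every siControl library, and the controls lay close together. The means were 623 ± 80.2 and 112 ± 11.5 CPM (SD, n = 3), with a log2 fold change of 2.47 ± 0.26 (SE; 95% interval 1.91 to 3.03; edgeR adjusted p = 8.9e-05). With any 1 library left out PLAU was still called, at log2 fold changes from 2.38 to 2.56. The row overlaps C10orf55 on the other strand, with which it shares 916 exonic bases in GENCODE 29, and the C10orf55 row had 5 counts over the 6 libraries.

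PLAT (NM_000930, hg38 chromosome 8, 42174718 to 42207724, minus strand) was at 129, 120.2 and 64.3 CPM in siFLI1, where it had 231, 181 and 24 counts. In siControl replicates 1, 2 and 3 it was at 23.2, 17.6 and 15.4 CPM, from 43, 30 and 18 counts. The groups did not overlap, and the lowest siFLI1 value came from the shallow replicate 3. On the log2 scale PLAT was higher by 2.50 ± 0.34 (SE; 95% interval 1.76 to 3.24; edgeR adjusted p = 0.000921). Without siFLI1 replicate 3 it was 2.72 ± 0.33, and it was called in each of the 6 fits without 1 library.

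The counts of the activators were set against each other within a library. With 3' end counts only the difference of this ratio between the groups is read, not its size. The PLAU count was 4.19, 5.20 and 10.9 times the PLAT count in siFLI1, and 5.30, 6.47 and 6.50 times in siControl. These ratios of raw counts need no scaling between libraries. They overlapped between the groups, with a siFLI1 mean of 6.77 ± 3.63 (SD, n = 3) and a siControl mean of 6.09 ± 0.682, and the value that stood out was that of siFLI1 replicate 3.

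The receptor PLAUR (NM_001301037, hg38 chromosome 19, 43648567 to 43670346, minus strand) was at 112, 114 and 126 CPM in siFLI1, and at 98.0, 76.7 and 47.9 CPM in siControl. All siFLI1 values lay above all siControl values, and the controls were the more scattered group. PLAUR was not called, at a log2 fold change of 0.64 ± 0.30 (SE; 95% interval 0.01 to 1.28; edgeR adjusted p = 0.456). PLAU counts per PLAUR count were 4.84, 5.48 and 5.57 in siFLI1 and 1.25, 1.48 and 2.09 in siControl. The ratio was higher in every siFLI1 library, with means of 5.30 ± 0.399 in siFLI1 and 1.61 ± 0.432 in siControl (SD, n = 3). As the genes were chosen on this contrast, the ratio is a description and no separate evidence.

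The serpins among the 8 did not follow the activators. SERPINE2 (protease nexin, an inhibitor of thrombin, urokinase and the tissue-type activator; NM_001136528, hg38 chromosome 2, 223975048 to 224039319, minus strand) was at 1672, 1792 and 1537 CPM in siFLI1, and at 1553, 1231 and 1103 CPM in siControl. The groups overlapped, since siControl replicate 1 lay above siFLI1 replicate 3. The log2 fold change of 0.36 ± 0.29 (SE; 95% interval −0.25 to 0.98) was not called (edgeR adjusted p = 0.729), and the interval holds changes from 0.839-fold to 1.98-fold.

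SERPINB2 (an inhibitor of urokinase that stays largely inside the cell; NM_001143818, hg38 chromosome 18, 63887705 to 63903890, plus strand) was the 1 gene of the 8 with a negative estimate. It was at 80.5, 75.1 and 69.6 CPM in siFLI1, and at 101, 155 and 121 CPM in siControl. The siFLI1 values lay close to each other and below all siControl values. Its estimate was −0.73 ± 0.27 on the log2 scale (SE; 95% interval −1.31 to −0.15), and it was not called (edgeR adjusted p = 0.302), nor in any of the 15 alternative fits. In GENCODE 29 its exons share 547 bases with SERPINB10 on the same strand, so some of its reads could belong to that gene.

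Set against SERPINE2 within a library, PLAU came to 0.324, 0.349 and 0.456 counts per SERPINE2 count in siFLI1 and to 0.0791, 0.0923 and 0.0907 in siControl. PLAT came to 0.0772, 0.0671 and 0.0418 counts per SERPINE2 count in siFLI1 and to 0.0149, 0.0143 and 0.0140 in siControl. Both ratios were higher in every siFLI1 library, again as a description of genes chosen on this contrast.

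**Figure D2:**
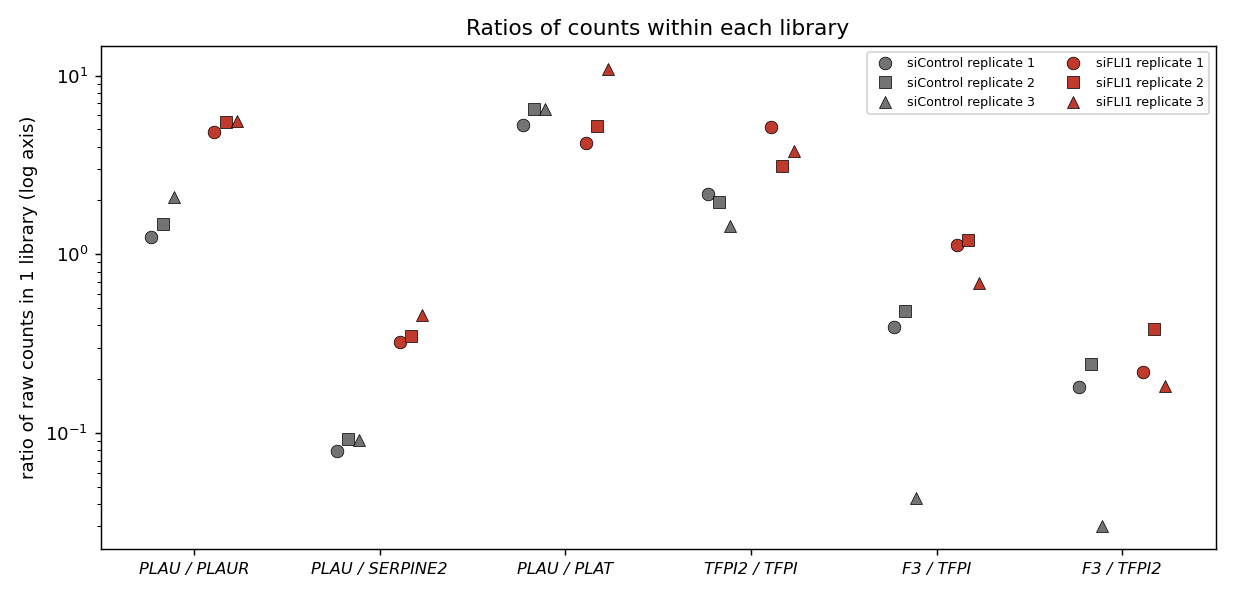
Ratio of the raw counts of a pair of genes within each library (y axis, log scale), grey for siControl and red for siFLI1, and marker shapes for the replicate number. PLAU over PLAUR, PLAU over SERPINE2, TFPI2 over TFPI and F3 over TFPI separate the groups, while PLAU over PLAT and F3 over TFPI2 overlap.

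Tissue factor (F3, NM_001993, hg38 chromosome 1, 94529176 to 94541857, minus strand) was the gene of the 8 with the widest interval. It was at 66.0, 145 and 77.6 CPM in siFLI1, and at 27.5, 25.8 and 3.42 CPM in siControl. Counts were 118, 218 and 29 in siFLI1 and 51, 44 and 4 in siControl, so the lowest control rests on 4 counts (95% exact Poisson interval 0.931 to 8.75 CPM, for counting error alone). The groups did not overlap, but siFLI1 replicate 2 stood well above the others of its group and siControl replicate 3 well below the others of its own.

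On the log2 scale F3 was higher by 2.31 ± 0.52 (SE; 95% interval 1.18 to 3.44), and its adjusted p of 0.0474 in edgeR lay just under the threshold. It was called in 1 of the 6 fits without 1 library, the one without siFLI1 replicate 3 (2.42, adjusted p = 0.0373). Its value was 1.87 without siFLI1 replicate 2 (adjusted p = 0.312) and 1.86 without siControl replicate 3 (adjusted p = 0.0676). Leaving out siFLI1 replicate 1 gave 2.54 (adjusted p = 0.0857), siControl replicate 1 gave 2.63 (adjusted p = 0.159), and siControl replicate 2 gave 2.57 (adjusted p = 0.191).

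The sequence in front of the F3 start is shown because it holds a perfect match to the AP-1 motif, which was found before the RefSeq start of PLAUR as well. It spans chr1:94541858-94542009 on the minus strand (RefSeq, GRCh38.p14), from 250 to 99 bases before the RefSeq start, and was ended where the exons of GENCODE 29 or the row of the count table begin. Capitals mark the AP-1 match TGAGTCA and matches to the GC box (GGGCGG or CCGCCC).

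F3 upstream: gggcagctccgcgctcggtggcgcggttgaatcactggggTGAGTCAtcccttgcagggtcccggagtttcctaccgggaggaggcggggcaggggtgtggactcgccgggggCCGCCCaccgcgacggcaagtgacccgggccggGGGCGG

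The AP-1 matches of both genes are set side by side with 10 bases on each side. That of F3 begins 210 bases before the start (stretch at chr1:94541953-94541979) and that of PLAUR 186 bases before it (chr19:43670339-43670365), both on the minus strand of GRCh38.p14. The F3 stretch lies outside annotated exons. All 27 bases of the PLAUR stretch lie in exons of GENCODE 29 or in the PLAUR row of the count table, and 8 of them lie in that row.
F3: atcactggggTGAGTCAtcccttgcag
PLAUR: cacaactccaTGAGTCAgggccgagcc

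Promoter windows, 250 bases before to 50 after the RefSeq start, were given for 7 of the 8 genes, 9 windows in all, and PLAT had none in the table. Each was searched on both strands for 4 motifs. TGACTCA (AP-1; its reverse complement is TGAGTCA) was in 2 of the 9 windows and in 4.95% of all 35116 promoter windows of that length. GGGCGG (GC box) was in 5 of 9 and in 45.0% of all, in windows of PLAU, SERPINE2, F3 and TFPI2. GGAATG (TEAD) and GGAAGGAA (tandem ETS core, whose letters can overlap the TEAD motif by their shared GGAA) were in 0 of 9, and in 14% and 3.67% of all windows. A match says that the letters are there and nothing about binding. Of the genes with a match to AP-1, F3 was called and PLAUR was not.

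The 2 Kunitz-type inhibitors differed in their values. TFPI2 (NM_001271003, hg38 chromosome 7, 93885397 to 93890991, minus strand) was at 302, 377 and 423 CPM in siFLI1, and at 152, 106 and 114 CPM in siControl. The lowest siFLI1 library lay well above the highest siControl library. TFPI2 was higher by 1.56 ± 0.26 on the log2 scale (SE; 95% interval 1.0 to 2.13; edgeR adjusted p = 0.00559). The call was lost without siControl replicate 2 (1.46, adjusted p = 0.0752) and without siControl replicate 3 (1.5, adjusted p = 0.0609).

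TFPI (NM_001329239, hg38 chromosome 2, 187464231 to 187554505, minus strand) was at 58.7, 121 and 112 CPM in siFLI1, and at 70.0, 53.9 and 78.6 CPM in siControl. The groups overlapped through siFLI1 replicate 1, which lay below siControl replicates 1 and 3. The log2 fold change of 0.51 ± 0.32 (SE; 95% interval −0.18 to 1.2) was not called (edgeR adjusted p = 0.635). Both rows share exonic bases with genes on the other strand in GENCODE 29, TFPI 118 bases with AC007319.1, and TFPI2 79 with AC002076.1 and 44 with GNGT1.

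TFPI2 counts per TFPI count were 5.15, 3.12 and 3.76 in siFLI1 and 2.17, 1.97 and 1.45 in siControl, higher in every siFLI1 library. F3 counts per TFPI count were 1.12, 1.2 and 0.690 in siFLI1 and 0.392, 0.478 and 0.0435 in siControl, with no overlap. F3 counts per TFPI2 count overlapped between the groups, at 0.218, 0.384 and 0.184 in siFLI1 and 0.181, 0.243 and 0.0301 in siControl. These ratios too describe genes chosen on this contrast.

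**Figure D3:**
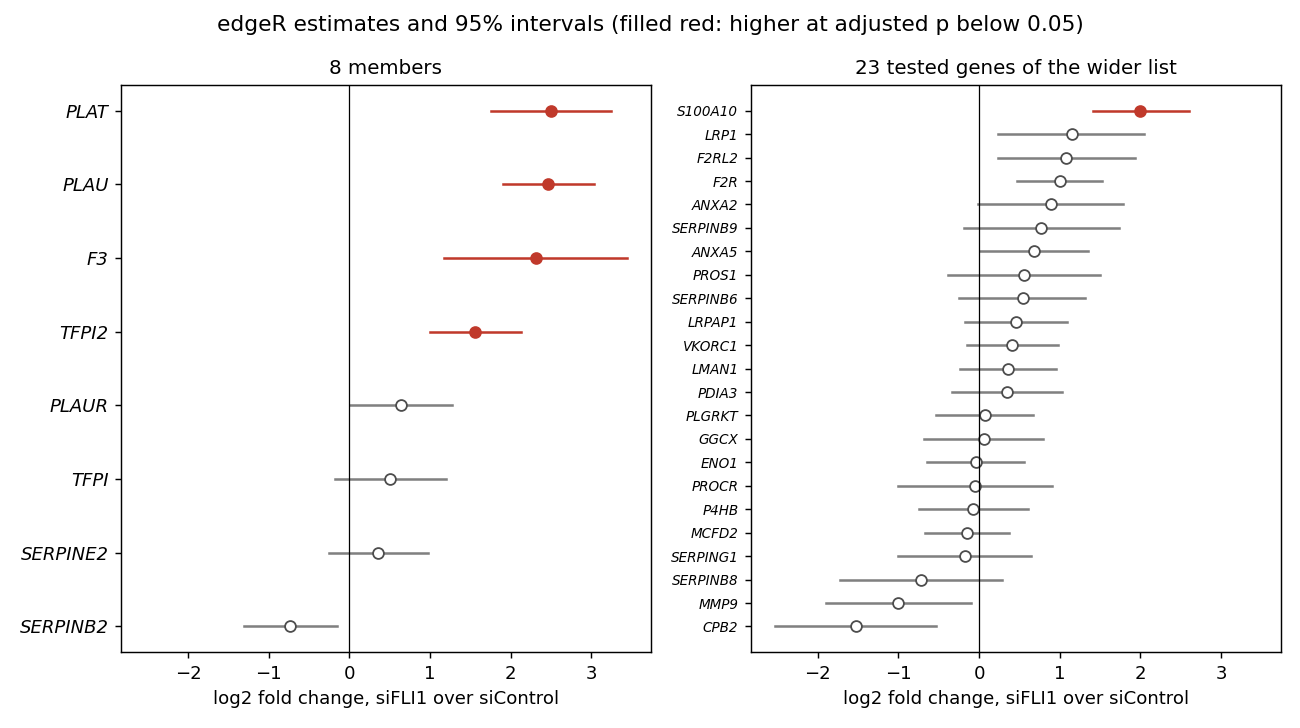
Log2 fold change of siFLI1 over siControl (x axis) with 95% intervals from edgeR, for the 8 genes (left) and for the 23 tested genes of the wider plasminogen and clotting list (right). Filled red points passed an adjusted p of 0.05; the left panel runs from PLAT at 2.50 to SERPINB2 at −0.73, the right from S100A10 at 2.0 to CPB2 at −1.53.

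A call depends in part on the spread within a group, so this spread is not independent of the choice of the 8. The spread differed among the 8, and each value rests on 3 libraries. It was measured as the variance of counts over that expected from counting alone. In siFLI1 it ran from 0.266 for PLAUR and 0.311 for SERPINB2, whose libraries differed by less than counting noise, to 18.8 for TFPI and 26.5 for F3. In siControl it ran from 1.32 for PLAT and 1.64 for PLAU to 63.8 for SERPINE2, a gene of high count in which the same relative scatter gives a higher value. The medians of all tested genes were 2.83 in siFLI1 and 4.23 in siControl. The coefficient of variation between libraries that edgeR estimated was 41.8% for F3 and 23.8% to 27.5% for the other 7, with a median of 33.5% over all tested genes. As the 8 were chosen on this contrast, nothing is read from their place against these medians.

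Other genes of plasmin formation and clotting were taken from a list of 51, of which 38 had a count and 23 could be tested. Of these 23, 1 rose, S100A10, and 0 fell (edgeR), against 1.34% and 0.117% of all tested genes, with 5 higher and 2 lower without adjustment (p of 0.05; 6.62% and 4.13% of all). DESeq2 and limma-voom each called 2 higher and 0 lower. Over all tested genes they called 1.94% and 1.35% higher and 0.361% and 0.138% lower. The median log2 fold change of the 23 was 0.36, and that of all tested genes 0.01. The called gene, and ANXA2, were already known from earlier results to be of interest and are not independent evidence.

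S100A10 and ANXA2 form a complex that binds plasminogen and PLAT at the cell surface. S100A10 rose from 258 ± 27.2 to 1037 ± 205 CPM (SD, n = 3), by 2.0 ± 0.28 on the log2 scale (SE; adjusted p = 0.000933 in edgeR). ANXA2 was at 6827, 7504 and 5893 CPM in siFLI1 and at 1594, 4646 and 4679 CPM in siControl, with no overlap, and was not called (0.89 ± 0.42, edgeR adjusted p = 0.47). Its low control was siControl replicate 1, and without that library the value was 0.50. ENO1, an enzyme of glycolysis that can also bind plasminogen at the surface, was at −0.04 ± 0.28.

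Plasminogen itself (PLG) had 0, 0 and 14 counts in siFLI1, and 2, 0 and 0 in siControl, and was not tested. The clotting factor genes F2 (prothrombin), F7 and F10 had 0 counts in all 6 libraries, which allows up to 1.62 to 2.56 CPM in 5 libraries and 8.03 CPM in siFLI1 replicate 3 (3 counts, for counting error alone).

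On the clotting side 11 genes were tested, and 0 were called in edgeR. Over all tested genes 1.34% were called higher and 0.117% lower. Without adjustment edgeR had 3 higher and 0 lower at a p of 0.05, against 6.62% and 4.13% of all tested genes. The thrombin receptor F2R was at 489, 542 and 608 CPM in siFLI1 and at 294, 269 and 252 CPM in siControl, higher by 1.0 ± 0.25 on the log2 scale (SE; adjusted p = 0.0654 in edgeR). Its groups did not overlap, and DESeq2 (0.99, adjusted p = 0.0123) and limma-voom (1.01, adjusted p = 0.0482) called it. MCFD2, part of the receptor that exports factors V and VIII from the endoplasmic reticulum, was at −0.15 ± 0.24. The protein disulfide isomerase P4HB was at −0.07 ± 0.32. On the plasminogen side of the list, LRPAP1, the chaperone of the LDL receptor family that clears serpin complexes, was at 0.46 ± 0.29.

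Picked after their values were seen, the clearance receptor LRP1 and the thrombin receptor family gene F2RL2 had estimates of 1.15 ± 0.42 and 1.08 ± 0.39. The 2 genes that were lower without adjustment were CPB2, a carboxypeptidase that protects fibrin from plasmin, and the gelatinase MMP9. CPB2 was at −1.53 ± 0.47, with no overlap between the groups. MMP9 overlapped between the groups, at −1.0 ± 0.42 (−0.67 ± 0.34 without siFLI1 replicate 3). Without siFLI1 replicate 3 and siControl replicate 1 MMP9 was at −0.37 ± 0.3. None of these 4 was called in edgeR (adjusted p from 0.167 to 0.403).

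Genes whose profile over the 6 libraries lay nearest to each of the 8 were listed, as the root mean square (RMS) difference of log2 CPM centred on each gene's mean, among 8339 genes with a mean of at least 10 CPM. The profiles include the difference between the groups. For PLAU the nearest were ERRFI1 (0.0968), ACTA2 (0.160) and PHLDA1 (0.186), and the median over all candidates was 1.31. That median ran from 0.510 for SERPINE2 to 1.64 for F3, so distances are not on 1 scale between the 8. For PLAT they were TGFBI (0.275), CHI3L1 (0.287) and COL6A1 (0.292). For TFPI2 they were LYPD1 (0.134), NEDD9 (0.149) and SUMF1 (0.168). F3 had the most distant neighbours, CXCL2 (0.449), PI3 (0.572) and SH3BP5 (0.587). The genes nearest to PLAUR were FSTL1 (0.103), TRRAP (0.119) and PFKFB3 (0.125), and to TFPI they were TASP1 (0.108), CAMSAP1 (0.12) and MAP3K8 (0.128). For SERPINE2 they were SP3 (0.0371), APLP2 (0.0466) and MIR4709 (0.0654), and for SERPINB2, the 1 gene of the 8 with a negative estimate, CXCL11 (0.0945), HNRNPM (0.1) and KIF11 (0.108).

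Markers of other cell types were summed in each library. Of 5 endothelial markers, TEK was at 0 in all libraries and 0 passed the low-count filter, and their sum was 3.91 to 9.30 CPM in siFLI1 and 2.93 to 9.40 CPM in siControl. Of 5 platelet markers 4 were at 0 throughout (PF4, PPBP, ITGA2B and GP9). Of 5 epithelial markers KRT19, KRT5 and KRT14 were at 0, and the sum was at most 8.03 CPM. Of 5 leukocyte markers CD3E was at 0 and 1 passed the filter, CD68. Their sum was 68.2 to 83.7 CPM in siFLI1 and 47.4 to 59.8 CPM in siControl. CD68 held most of that sum outside siFLI1 replicate 3, in which PTPRC was at 42.8 CPM. Of 5 liver markers, TTR was at 0, and the sum was 4.65 to 24.1 CPM in siFLI1, the highest in replicate 3, and 0 to 1.62 CPM in siControl. APOA1, from 3.32 to 11.7 CPM in siFLI1, did not overlap. The part of these in the results was not tested.

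**Figure D4:**
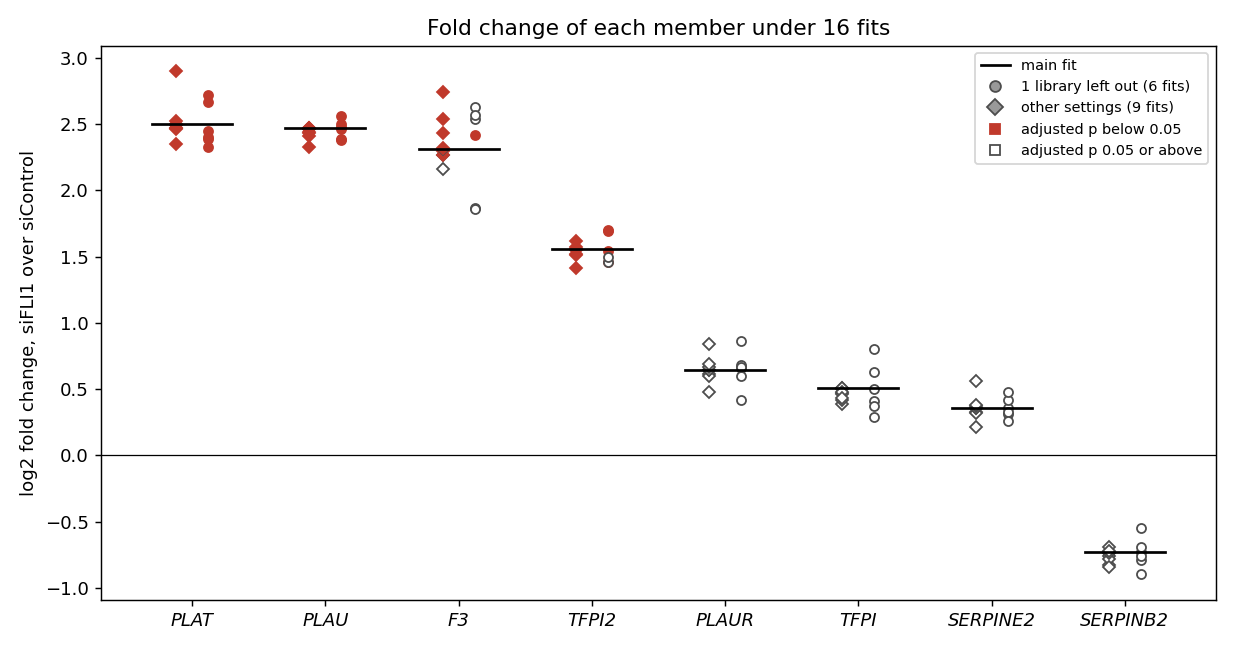
Log2 fold change of each of the 8 genes (y axis) in the main fit (black bar), in the 6 fits without 1 library (circles) and under 9 other settings (diamonds); red symbols passed an adjusted p of 0.05. PLAT, PLAU and TFPI2 stay between 1.41 and 2.90, F3 loses its call in many fits, and SERPINB2 lies below 0 in all.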

How the data were processed

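The authors deposited raw counts per gene over exons for 6 libraries, 1 RefSeq transcript per gene. Per the labels' protocols these were 3' libraries by a bulk form of MARS-seq with molecular barcodes. Per the submitters' processing notes, bcl2fastq, HISAT 0.1.5, HOMER and hg38 were used, with no role or order; the sources used here do not give whether barcodes were collapsed or strand was used. Counts from 3' ends are compared within a gene, not between genes.

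Genes passed edgeR's filterByExpr (minimum count 10, minimum total 15; 9420 of 27234). The fit used R 4.3.3 and edgeR 4.0.16 (TMM, glmQLFit with robust=TRUE, glmQLFTest, two-sided, group as the 1 term), with Benjamini-Hochberg adjustment over all tested genes and a threshold of 0.05. SE and intervals came from the F statistic. Fits were checked on simulated counts. No pair of replicates matched within sampling noise (lowest chi-square over its degrees of freedom 6.78).

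The members and lists were chosen with earlier results of these data known. Named genes were the 8 members, and of the wider list those called, the 6 uncalled ones with the highest mean, PLG, F2, F7 and F10, and for each member the 3 genes with the nearest profile. Alternatives were DESeq2 size factors, total counts or upper quartile scaling, no filter or 5 CPM in 3 libraries, DESeq2 1.42.0, limma-voom (limma 3.58.1), a replicate block, leaving out libraries, and a threshold of 0.01. Promoter sequences are RefSeq's (GRCh38.p14). Protein sequences were not used here, and 1 gene of the wider list is not reported here.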

Additional observations from a re-analysis of the deposited data

How the results depend on the processing

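Of the 8 members, PLAU and PLAT were called under all 15 alternatives (log2 fold change 2.33 to 2.56 and 2.33 to 2.90), TFPI2 in 13 and F3 in 7. F3 was also lost under total counts (2.16), upper quartile scaling (2.27) and the 5 CPM filter (2.31), and PLAUR, SERPINE2, SERPINB2 and TFPI were called in none; no member changed sign. Without 1 library, 2 to 4 members were called higher (2 without siControl replicate 2 or 3) and 0 lower, 1 gene of the wider list higher and 0 lower, and over all genes 64 to 121 higher and 1 to 7 lower, against 126 and 11. The wider list had 2 called higher, S100A10 and F2R, in DESeq2, in limma-voom and without siFLI1 replicate 3 and siControl replicate 1. The fits without 1 library tested 9802 to 10102 genes and the main fit 9420, so their counts have unlike totals. All-gene counts were 306 higher and 62 lower of 18819 tested genes with no filter, and 71 and 1 of 9420 at a threshold of 0.01. They were 34 lower in DESeq2 and 17 lower under total counts. Without siFLI1 replicate 3 and siControl replicate 1 they were 161 higher and 32 lower. Apart from the stricter threshold, which can only lower a count, the causes of these differences were not tested. Total counts moved the median of all genes to −0.12. ENO1 ran from −0.25 to 0.12 and P4HB from −0.26 to 0.19 without 1 library, and P4HB was 0.44 without siFLI1 replicate 3 and siControl replicate 1. Same-numbered libraries did not deviate together (correlations −0.03, −0.01 and −0.05), so the numbers are not taken as pairs; with the replicate block 4 members, 99 genes higher and 2 genes lower were called. Depth limits values in siFLI1 replicate 3, where PLAT had 24 counts (95% exact Poisson interval 41.2 to 95.6 CPM).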

Other observations

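The untested genes PLG, F5 and F8, chosen after their values were seen, each had their highest count in the shallow siFLI1 replicate 3. PLG had 14 counts there, 0 and 0 in siFLI1 replicates 1 and 2, and 2, 0 and 0 in siControl replicates 1, 2 and 3. F5 had 31 there, 0 and 0 in siFLI1 replicates 1 and 2, and 2, 17 and 4 in siControl replicates 1, 2 and 3. F8 had 9 counts there, 5 and 1 in siFLI1 replicates 1 and 2, and 2, 2 and 3 in siControl replicates 1, 2 and 3. In that library 14606 genes had a count, from a total of 417145, against 14024 to 14678 genes in the other 5 libraries with totals of at least 1248395.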
